A study of Mus musculus with 7 samples.

Results

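Macrophages and other leukocytes are recognised in a tissue by transcripts that lens cells are not known for, and 10 such marker genes were followed here through laser-captured lens epithelium of mice without SPARC, a secreted protein that binds collagen in the matrix around cells. The genes were Csf1r, Ctss, Lyz2, Tyrobp, Cd68, Ptprc, Laptm5, Fcer1g, Aif1 and Cx3cr1. All 18 probe sets (groups of short probes for 1 transcript) whose only gene symbol in the platform annotation was one of these names were taken, out of 45037 probe sets without controls, and the 10 genes stand among 18193 with such a probe set. The SPARC knock-out (KO) group held 4 lenses from 3 mice labelled SPARC-null on a C57Bl/6 background, namely both lenses of animal 1 (1L and 1R) and the left lenses of animals 4 and 7 (4L and 7L). The wild-type (WT) group held the left lenses of 3 mice on the same background, 2L, 5L and 6L. All mice were 28 days old and from 1 litter, KO animal 7 was male and the other animals were female. Each lens was cryosectioned, stained with Cresyl violet, captured by laser, and hybridised to its own array after RNA amplification in 2 cycles. The 2 lenses of KO animal 1 were averaged, so n = 3 animals per group.

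The lens has no blood vessels and is enclosed by a collagen capsule, so leukocytes normally lie outside it, in the ciliary body, the iris, the retina and the remnants of the fetal vessels. Macrophages and microglia depend on CSF1R, the receptor of the growth factors CSF1 and IL-34, and on the transcription factor PU.1 (gene Spi1). CX3CR1 is their receptor for fractalkine. TYROBP (DAP12) and FCER1G (the Fc receptor gamma chain) are small adaptors that carry signals from surface receptors to the kinase SYK. CD45 (Ptprc) is a phosphatase on all nucleated blood cells, while cathepsin S (Ctss), lysozyme (Lyz2), CD68 and LAPTM5 belong to the lysosomes and granules of phagocytes and AIF1 (Iba1) binds actin in their cytoplasm.

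The sequences before the gene start are shown for 3 of the members that hold the letters marked below, Ctss, Laptm5 and Aif1. They come from the RefSeq table of assembly GRCm38.p6. Each is the 250 bases before the start, 5′ to 3′ on the strand of the gene, with GAGGAA, the core of a PU.1 site, or its reverse complement TTCCTC in capitals. The Ctss window is at chr3:95526536-95526785 (plus strand), that of Laptm5 at chr4:130913066-130913315 (plus strand), and that of Aif1 at chr17:35176053-35176302 (minus strand).
Ctss: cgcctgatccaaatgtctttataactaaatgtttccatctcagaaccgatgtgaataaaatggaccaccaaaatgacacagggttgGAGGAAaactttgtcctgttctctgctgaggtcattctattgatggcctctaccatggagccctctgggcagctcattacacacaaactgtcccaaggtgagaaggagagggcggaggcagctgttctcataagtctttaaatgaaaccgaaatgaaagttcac
Laptm5: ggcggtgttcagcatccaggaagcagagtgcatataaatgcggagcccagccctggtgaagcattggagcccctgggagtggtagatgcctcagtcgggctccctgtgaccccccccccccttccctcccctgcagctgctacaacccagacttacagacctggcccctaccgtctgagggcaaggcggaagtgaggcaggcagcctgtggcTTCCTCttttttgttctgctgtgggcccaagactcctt
Aif1: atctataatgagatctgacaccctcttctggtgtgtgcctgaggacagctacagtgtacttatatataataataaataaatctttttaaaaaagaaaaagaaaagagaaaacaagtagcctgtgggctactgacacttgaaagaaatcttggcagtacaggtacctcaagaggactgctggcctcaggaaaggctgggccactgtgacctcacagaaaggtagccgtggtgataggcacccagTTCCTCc

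The letters stood once in each of these windows, starting 164 bases before the Ctss start, 38 before that of Laptm5 and 7 before that of Aif1. The RefSeq table had entries for 8 of the 10 genes, with 9 windows, and 5 of the 8 genes (Ctss, Laptm5, Aif1, Cd68 and 1 of the 2 Ptprc windows) held GAGGAA on either strand. No match was found in the windows of Cx3cr1, Fcer1g and Lyz2. Of all 32851 windows of this length, 7639 (23.3%) held these letters. A match is a description of the sequence and not evidence of a bound site.

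The captured material held transcripts of lens cells and of neighbouring tissues. Of 23 measured lens genes, 22 lay above the highest bacterial control in all 7 lenses, and Foxe3, a transcription factor of the lens epithelium, lay above it in 3. The same held for 19 of 20 genes of retina and pigment cells and for 15 of 16 of cornea, conjunctiva and stroma. Of all 18193 genes, 11865 lay above the highest bacterial control in all 7 lenses. These 27 bacterial controls have no target in mouse RNA and gave signals of 0.199 to 45.5, and they serve as the gauge of background throughout. At its brightest probe set, Sparc itself had signals between 8.14 and 70.5 in the KO lenses and between 27371 and 49972 in the WT lenses. The ratio of the 3′ to the 5′ Gapdh signal, which is lower in more intact RNA, ran from 9.06 to 15.9 in 6 lenses, and lens 2L of the WT group had 3.75. With 7 arrays, precision is limited by their number.

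No marker gene passed the test for a difference between KO and WT. In limma, 0 of the 18 probe sets had an adjusted p under 0.05, against 0.00666% of all probe sets, and all 18 had an adjusted p of 0.99988. At an unadjusted p under 0.05 there were 6 of the 18, with 4.06% of all probe sets at that level. Of these, 4 were higher in KO (2.24% of all) and 2 lower (1.81%). The KO mean was the higher one at 15 of the 18 probe sets, against 48.4% of all. By the brightest probe set of each gene it was higher for 9 of 10 genes, against 45.6% of all genes, and their median log2 difference was 0.38, against -0.03 over all genes. By this choice of probe set, 3 of the 10 genes (Csf1r, Ctss and Lyz2) were more than 0.5 higher in KO, against 7.23% of all genes, and 3 (Csf1r, Ctss and Aif1) had an unadjusted p under 0.05, against 4.07%. Without KO animal 4 or WT animal 5, the KO mean was higher for 7 of 10. The members were proposed with results of these data in view, so these counts carry no test. In bulk RNA, more leukocytes and more marker RNA per leukocyte cannot be told apart.

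**Figure D1:**
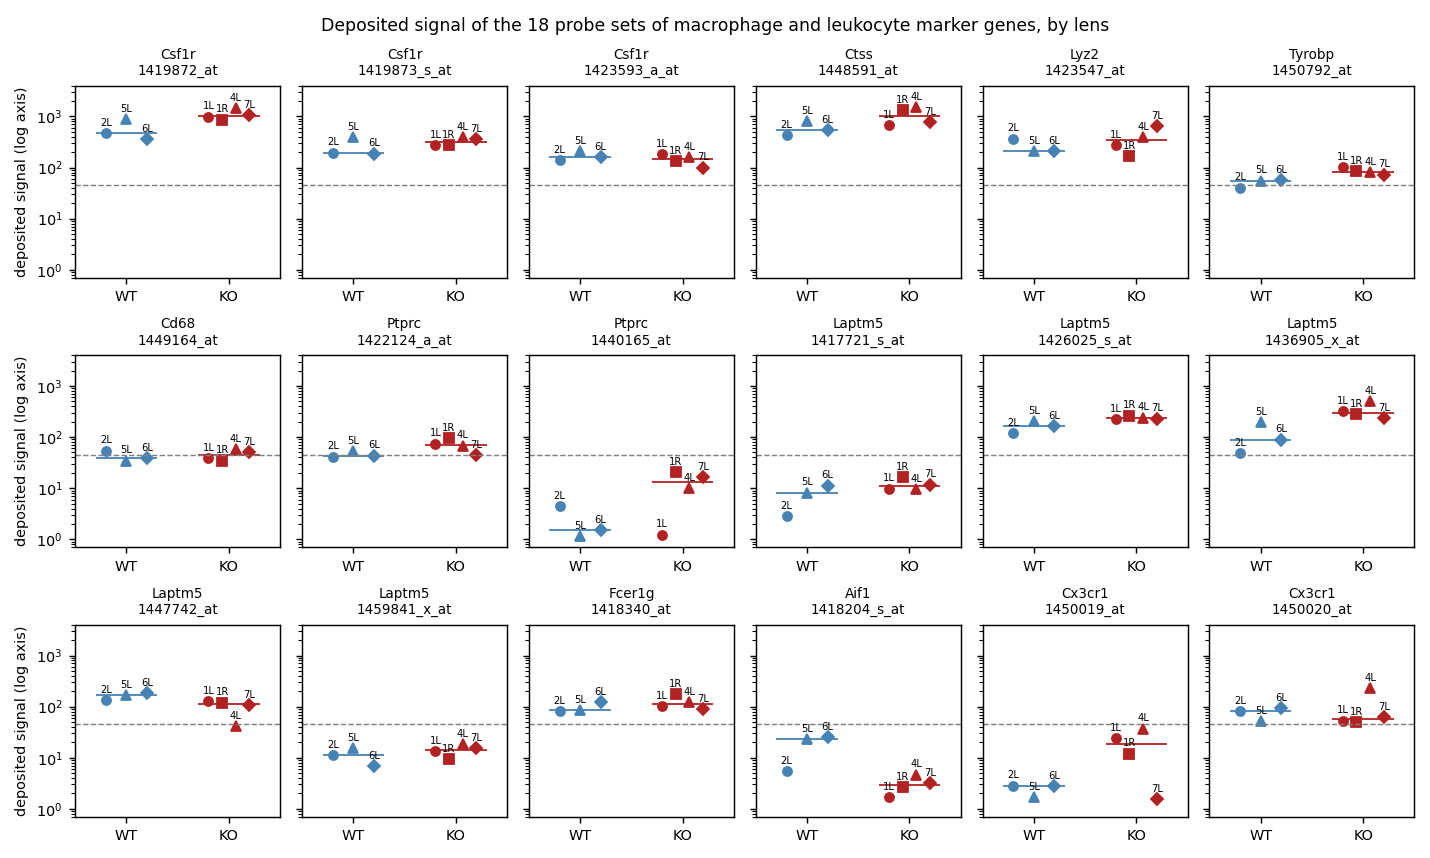
Deposited signal (log axis) of the 18 marker probe sets in the 3 WT and 4 KO lenses. Points are lenses, horizontal bars are group medians and the dashed line is the highest bacterial control at 45.5. The Csf1r probe set 1419872_at and Ctss sit far above the line in every lens, while Aif1 and the Cx3cr1 probe set 1450019_at lie under it in every lens.

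Among the receptors, Csf1r was measured by 3 probe sets above the bacterial controls in all 7 lenses. At the brightest, 1419872_at, the deposited signals were 997 (1L), 868 (1R), 1445 (4L) and 1063 (7L) in KO and 474 (2L), 886 (5L) and 361 (6L) in WT. The groups overlapped, because the WT lens 5L lay above the KO lens 1R, and the 2 other WT lenses lay below every KO lens. The KO animals had a log2 level of 10.16 ± 0.34 and the WT animals one of 9.11 ± 0.66 (SD, n = 3), which gives a log2 difference of 1.05 (SE 0.34, 95% interval 0.29 to 1.81; limma, unadjusted p = 0.0115, adjusted p = 0.99988). Leaving out 1 animal at a time moved this difference between 0.81 (without WT animal 6) and 1.42 (without WT animal 5).

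The other Csf1r probe sets did not show the same size. At 1419873_s_at, whose suffix marks probes shared by several transcripts, KO lenses had signals of 279 (1L), 275 (1R), 389 (4L) and 357 (7L), and WT lenses 195 (2L), 392 (5L) and 188 (6L). The highest of the 7 values was that of the WT lens 5L. The log2 difference was 0.39 (SE 0.35, 95% interval -0.38 to 1.17). At 1423593_a_at, KO lenses gave 186 (1L), 135 (1R), 163 (4L) and 100.3 (7L), and WT lenses 139 (2L), 209 (5L) and 160 (6L), and the log2 difference was -0.33 (SE 0.35). The 3 Csf1r probe sets therefore disagreed in sign, and a difference as large as that at 1419872_at was seen at neither of the others. Averaged over the 3 probe sets, the log2 difference was 0.37. Where in the transcript these probe sets lie is not known here.

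Cx3cr1, the fractalkine receptor of microglia and monocytes, was near background. At its brighter probe set, 1450020_at, signals were 53.3 (1L), 49.8 (1R), 231 (4L) and 61.9 (7L) in KO and 82.9 (2L), 51.7 (5L) and 94.8 (6L) in WT. The KO lens 4L stood apart, and the other 3 KO lenses lay within or below the WT range. The log2 difference of 0.20 (SE 0.54, 95% interval -0.99 to 1.40) became -0.41 without KO animal 4. At 1450019_at no lens exceeded the bacterial controls, with signals from 1.56 in 7L to 37.1 in 4L among the KO lenses and from 1.69 to 2.84 among the WT lenses, so neither a fold nor a direction is given.

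Ptprc, which encodes CD45, was close to the limit as well. Its brighter probe set, 1422124_a_at, had signals of 74.8 (1L), 97.1 (1R), 68.4 (4L) and 44.3 (7L) in KO and 41.4 (2L), 52.5 (5L) and 43.5 (6L) in WT. Of these, 3 KO lenses and 1 WT lens lay above the highest bacterial control, and 3 of the 4 KO lenses lay above all WT lenses. The log2 difference was 0.29 (SE 0.36, 95% interval -0.52 to 1.10), or 0.14 without KO animal 1 and 0.49 without KO animal 7. At the other Ptprc probe set, 1440165_at, no lens exceeded 20.4, so its unadjusted limma p of 0.0317 belongs to values within the range of the bacterial controls.

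The adaptor Tyrobp was one of the probe sets at which KO and WT lenses did not overlap. Its signals were 104 (1L), 84.4 (1R), 82.7 (4L) and 73.1 (7L) in KO and 40.6 (2L), 55.6 (5L) and 56.2 (6L) in WT. Every KO lens lay above every WT lens, and 2L lay under the highest bacterial control. The log2 level of the KO animals was 6.59 ± 0.12 and that of the WT animals 6.11 ± 0.14 (SD, n = 3), a difference of 0.48 (SE 0.34, 95% interval -0.29 to 1.25; limma, unadjusted p = 0.192). The moderated SE was larger than the spread of these 6 animals because limma draws the variance of each probe set towards that of probe sets of like intensity. KO lenses lay above all WT lenses at 2 of the 18 marker probe sets (2.56% of all probe sets) and below all at another 2 (2.76% of all).

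The other adaptor, Fcer1g, was above the bacterial controls in all 7 lenses. Its signals were 102 (1L), 173 (1R), 124 (4L) and 88.8 (7L) in KO and 81.5 (2L), 86.2 (5L) and 122 (6L) in WT. The groups overlapped, and the lenses of KO animal 1 differed from each other by 0.66 on the log2 scale, more than the KO and WT means did (0.13, SE 0.35, 95% interval -0.66 to 0.91). It was 0.03 without WT animal 2 and 0.28 without KO animal 7, and the interval allows a difference in either direction.

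Among the genes of lysosomes and granules, Ctss, a cysteine protease that processes the invariant chain of MHC class II, had signals of 685 (1L), 1321 (1R), 1524 (4L) and 767 (7L) in KO and 425 (2L), 820 (5L) and 536 (6L) in WT. The KO lenses 1R and 4L lay above all WT lenses, while 1L and 7L lay below the WT lens 5L. The log2 difference was 0.84 (SE 0.34, 95% interval 0.08 to 1.60; limma, unadjusted p = 0.0343, adjusted p = 0.99988), and it was 0.55 without KO animal 4 and 0.59 without WT animal 2. The lenses of KO animal 1 differed by 0.93, more than the groups did.

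Lyz2, lysozyme of macrophages and neutrophils, had signals of 280 (1L), 170 (1R), 402 (4L) and 658 (7L) in KO and 368 (2L), 212 (5L) and 212 (6L) in WT. KO lenses held both the lowest and the highest of the 7 values. The log2 difference of 0.53 (SE 0.40, 95% interval -0.37 to 1.42) was 0.16 without KO animal 7 and stood at 0.94 without KO animal 1. Lyz1, the neighbouring and nearly identical lysozyme gene of Paneth cells, was looked at beside it because probes of either gene can bind the other's transcript. Its probe sets 1436996_x_at and 1439426_x_at had log2 differences of 0.71 (SE 0.24) and 0.87 (SE 0.30), and the third had no lens above the bacterial controls. KO lenses 4L and 7L were the highest at both of these Lyz1 probe sets and at Lyz2, with 2337 and 2763 at 1436996_x_at, where the other 5 lenses had 1313 to 1758. Which of these genes the signal comes from is uncertain.

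Laptm5, a lysosomal membrane protein of blood cells, was covered by 5 probe sets that did not show 1 pattern. At the brightest, 1426025_s_at, signals were 224 (1L), 262 (1R), 241 (4L) and 231 (7L) in KO and 119 (2L), 206 (5L) and 162 (6L) in WT. Every KO signal lay above every WT signal as deposited, while after quantile normalization the WT lens 5L (7.89 on the log2 scale) lay above the KO lens 1L (7.85). The log2 difference was 0.46 (SE 0.31, 95% interval -0.24 to 1.16), or 0.26 without WT animal 2 and 0.65 without WT animal 5.

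The largest difference of any marker probe set was at the Laptm5 probe set 1436905_x_at, whose suffix marks probes that can also bind other transcripts. Its signals were 322 (1L), 282 (1R), 503 (4L) and 233 (7L) in KO and 48.8 (2L), 198 (5L) and 89.0 (6L) in WT, with no overlap. The log2 difference was 1.51 (SE 0.48, 95% interval 0.45 to 2.58; limma, unadjusted p = 0.0102, adjusted p = 0.99988), or 2.86-fold, and it was 1.13 without WT animal 2. The probe set 1447742_at lay the other way, again with no overlap. It gave 130 (1L), 119 (1R), 41.2 (4L) and 106 (7L) in KO and 133 (2L), 167 (5L) and 184 (6L) in WT, a log2 difference of -0.93 (SE 0.41), which was -0.54 without KO animal 4. At the remaining Laptm5 probe sets, 1417721_s_at and 1459841_x_at, no lens exceeded the bacterial controls. The KO lens 4L was thus the highest lens at 1436905_x_at and the lowest at 1447742_at, 2 probe sets assigned to the same gene.

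Cd68, a glycoprotein of macrophage lysosomes, had signals of 39.2 (1L), 34.8 (1R), 57.4 (4L) and 51.6 (7L) in KO and 54.5 (2L), 34.8 (5L) and 38.5 (6L) in WT. Only 2 KO lenses and 1 WT lens exceeded the highest bacterial control, and the log2 difference was 0.07 (SE 0.36, 95% interval -0.74 to 0.87). Aif1 lay under that control in all 7 lenses, with 1.72 (1L), 2.71 (1R), 4.67 (4L) and 3.18 (7L) in KO and 5.49 (2L), 22.8 (5L) and 25.0 (6L) in WT. It was the only gene of the 10 with a lower KO mean (log2 difference -0.80, SE 0.27, limma unadjusted p = 0.0161). All of its values are within the range of the bacterial controls, so its direction is not resolved.

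**Figure D2:**
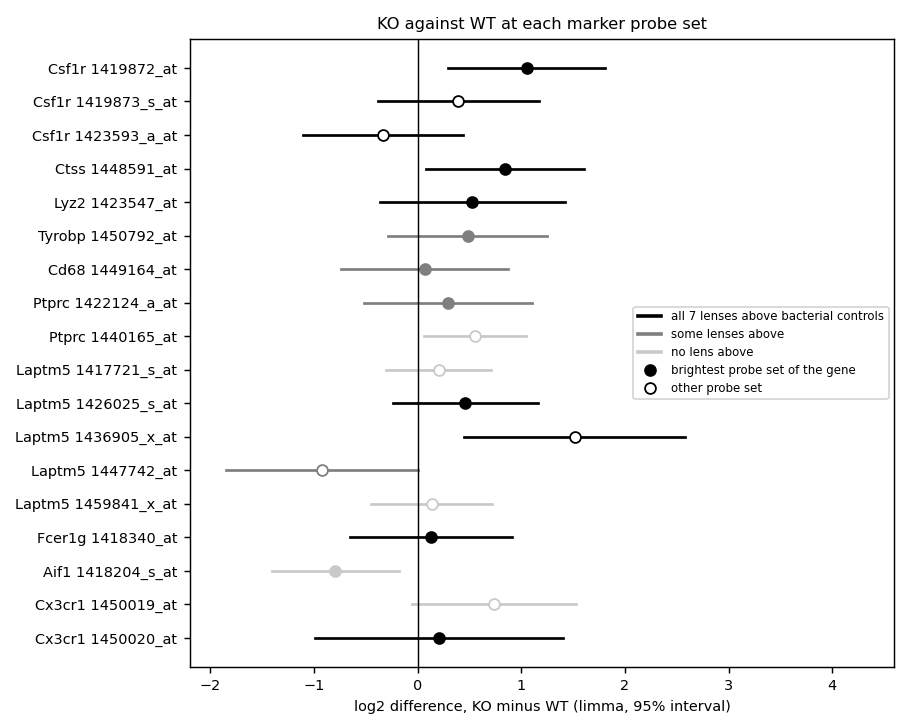
Log2 difference between KO and WT animals (points) with the 95% interval from limma (lines) at the 18 marker probe sets. Shade shows in how many lenses the probe set exceeded the highest bacterial control, and filled points are the brightest probe set of a gene. The Laptm5 probe sets run from -0.93 to 1.51 and those of Csf1r from -0.33 to 1.05.

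Of the 18 marker probe sets, 9 lay above the highest bacterial control in all 7 lenses, as did 51.4% of all probe sets. These 9 were the 3 of Csf1r, 2 of Laptm5, and 1 each of Ctss, Lyz2, Fcer1g and Cx3cr1. By gene, 6 of 10 were above it in all lenses, as were 11865 of all 18193 genes. The median log2 difference of these 6 was 0.49, and no median over all genes was taken with the same filter. Of the 6 probe sets with an unadjusted p under 0.05, those of Aif1 and of Ptprc (1440165_at) lay under it in every lens. Without KO animal 4, without WT animal 6, or with the left lens of KO animal 1 alone, 3 probe sets had an unadjusted p under 0.05 in place of 6. The share of all probe sets at that level was not taken under these settings, so the drop cannot be read as particular to the markers.

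Other genes of phagocytes were read beside the 10 markers, with no test between the lists. Of 42 gene symbols listed, which held Adgre1 also under its older name Emr1, 39 were measured. The KO mean was higher for 20 and lower for 19 of them, and the median of their log2 differences was 0.03 (mean 0.18). With 1 animal left out, 17 (without KO animal 4) to 26 (without WT animal 5 or KO animal 7) were higher, and the median ran from -0.08 to 0.14. None passed in limma (adjusted p = 0.99988 for Trem2, Cd163 and C1qa). At an unadjusted limma p under 0.05 there were 5, against 4.07% of all genes, with 4 higher and 1 lower in KO. Trem2, a receptor that signals through TYROBP, was the lower one, but all 4 KO lenses (signals of 6.28 to 20.5) and 2 of 3 WT lenses (32.4 and 45.2, with 89.6 in 5L) lay under the highest bacterial control, so no fold is given. Cd163, the haemoglobin scavenger receptor of tissue macrophages, had log2 levels of 7.27 ± 0.21 (KO) and 6.04 ± 0.12 (WT), and differed by 1.23 (SE 0.34; limma, unadjusted p = 0.00520), with every KO lens above every WT lens. However, its WT signals of 47.7 (2L), 50.9 (5L) and 43.9 (6L) lay close to the highest bacterial control, so the size of this difference is uncertain. For C1qa, a chain of complement C1q, the log2 difference was 1.61 (SE 0.46), but 2 of 3 WT lenses (25.3 in 5L and 33.1 in 6L) lay under the bacterial controls, and the groups overlapped, with 88.7 in the WT lens 2L and 85.2 in the KO lens 1R.

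For Adgre1, Spi1 and Itgam, which also define macrophages, the SE was larger than the difference. Adgre1, which encodes the macrophage antigen F4/80, was above the bacterial controls in all 7 lenses, with log2 levels of 7.10 ± 0.28 (KO) and 7.07 ± 0.07 (WT; SD, n = 3) and a difference of 0.03 (SE 0.33). Spi1, the gene of PU.1, stood at 6.56 ± 0.13 (KO) and 6.69 ± 0.24 (WT), a difference of -0.13 (SE 0.35). Itgam (CD11b) stood at 5.62 ± 0.64 (KO) and 5.70 ± 0.35 (WT), with 1 KO and 1 WT lens above the bacterial controls and an SE of 0.41. These SEs allow differences in either direction. Among the other phagocyte genes, the difference exceeded the SE for instance for Cd86 (1.08, SE 0.33), Ly86 (0.78, SE 0.47) and Mrc1 (0.74, SE 0.45). It also did so in the other direction, for H2-Ab1 (-0.52, SE 0.50) and H2-Eb1 (-0.39, SE 0.37). For Cd86 no WT lens lay above the bacterial controls. The microglial genes P2ry12 and Gpr34 and the chemokine Ccl3 lay under these controls in all 7 lenses.

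The partners of the markers were at hand in the same arrays. Of 26 ligands, co-receptors and kinases listed, 23 were measured, 10 with a higher and 13 with a lower mean in KO (median log2 difference -0.08), and none passed in limma. Leaving out 1 animal at a time moved this median between -0.14 and -0.0066. Of the ligands of CSF1R, Csf1 had log2 differences of 0.28 (SE 0.42) at its brightest probe set and of 1.17 (SE 0.51; limma, unadjusted p = 0.0457, adjusted p = 0.99988) at 1425155_x_at, which exceeded the bacterial controls in 6 lenses. Its other probe sets differed by 0.03 and 0.27. Il34 differed by -0.21 (SE 0.40). Cx3cl1, which encodes fractalkine, the ligand of CX3CR1, had signals of 1077 (1L), 735 (1R), 847 (4L) and 780 (7L) in KO and 599 (2L), 470 (5L) and 568 (6L) in WT. Every KO lens lay above every WT lens at this probe set, with a log2 difference of 0.61 (SE 0.21; limma, unadjusted p = 0.0176, adjusted p = 0.99988), while a dimmer Cx3cl1 probe set above the bacterial controls in all lenses differed by -0.14 (SE 0.39). Clec4e, a lectin receptor that signals through FCER1G, lay above the controls in 1 lens. Cst3, the secreted inhibitor of cathepsins, had log2 levels of 14.50 ± 0.26 (KO) and 14.51 ± 0.27 (WT). Cd74, the invariant chain cleaved by cathepsin S, had 8.03 ± 0.58 (KO) and 8.16 ± 0.51 (WT).

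Lysosomal genes that all cells use gave a reference for the lysosomal markers. All 27 measured lay above the bacterial controls in every lens, 16 had a higher mean in KO, and their median log2 difference was 0.04, or -0.02 to 0.17 with 1 animal left out. The adjusted limma test called 0 of them, and without adjustment 0 had a p under 0.05, against 4.07% of all genes. The smallest p was that of Grn, the progranulin gene, with a log2 difference of 0.42 (SE 0.23).

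Markers of other blood cells lay above the bacterial controls in all 7 lenses for 4 of 19 lymphocyte genes and 2 of 20 neutrophil and mast cell genes, and in no lens for 5 and 4. Of the 19 lymphocyte genes, 6 had a higher mean in KO (median log2 difference -0.13). Without KO animal 4 that count was 10 (median 0.03), without WT animal 5 also 10 (median 0.02), and without KO animal 7 it was 7 (median -0.34). Of these genes, the T-cell receptor genes Cd3d, Cd3e and Cd3g and the B-cell gene Cd79b lay under the bacterial controls in all 7 lenses. In contrast, Nkg7, Prf1 and Zap70 lay above them in all 7 lenses. Their log2 differences were -0.43 (SE 0.34), -0.13 (SE 0.35) and -0.02 (SE 0.45). Klrd1, a receptor of natural killer cells, had signals of 41.5 to 67.5 in the KO lenses and of 7.56 to 33.8 in the WT lenses, with all 3 WT lenses and the KO lens 7L under the highest bacterial control. Thy1, which neurons also express, was above them in every lens, with a log2 difference of 0.83 (SE 0.29). Of 20 neutrophil and mast cell genes, 10 had a higher mean in KO (median 0.01, or -0.14 to 0.10 with 1 animal left out). None of the genes of these 2 lists passed in limma, and 3 lymphocyte genes and 0 of the neutrophil and mast cell genes had an unadjusted p under 0.05. Of all genes, 4.07% were at that level.

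The KO lens 4L had the highest mean over the 10 markers, 0.46 above the mean of the animals on the log2 scale. The other KO lenses lay at -0.05 (1L), 0.02 (1R) and 0.05 (7L), and the WT lenses at -0.29 (2L), -0.04 (5L) and -0.16 (6L), so 1L lay below the WT lens 5L. Over the 39 other phagocyte genes 4L was again the highest, at 0.45, and 2L the lowest, at -0.30, while 5L at 0.11 lay above the other 3 KO lenses. Lens 4L was the highest of the 7 at 6 of the 18 marker probe sets and 2L the lowest at 7. The same counts were not taken over all probe sets, so they may not be particular to the markers. In that same lens 2L the RNA was the most intact by the Gapdh ratio and the added CreX control was the dimmest (20810, others 32836 to 44108). The median log2 difference over the 10 markers was 0.34 without KO animal 4 and 0.28 without WT animal 2, each left out alone. The markers were proposed with results of these data in view, so these medians carry no test.

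**Figure D3:**
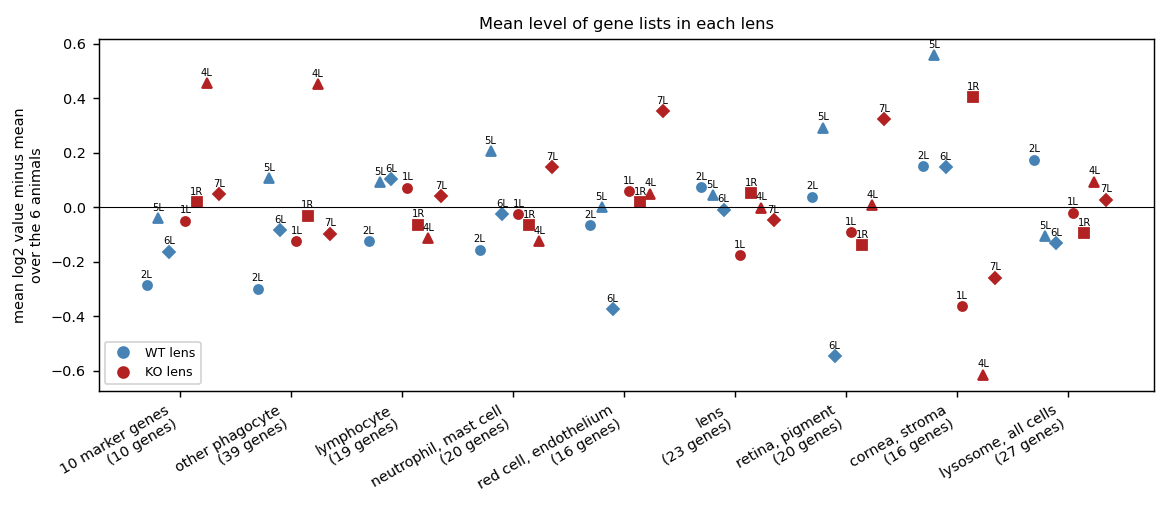
Mean log2 value of each gene list in each lens, minus the mean over the 6 animals, for WT (blue) and KO (red) lenses. KO lens 4L is highest for the 10 markers (0.46) and for the other phagocyte genes (0.45), and lowest for cornea and stroma (-0.61).

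Lists of neighbouring tissues also differed between lenses. Of 16 red cell and endothelial genes, 13 had a higher mean in KO (median log2 difference 0.17). That count was 8 without WT animal 6 (median 0.04), 9 without KO animal 7 (median 0.07) and 10 without WT animal 2 (median 0.10). The mean log2 level of the list lay between 6.86 and 7.19 in the KO lenses and between 6.46 and 6.84 in the WT lenses, with Hba-a1, Pecam1 and Tie1 under the bacterial controls in every lens. Of 16 genes of cornea, conjunctiva and stroma, 12 had a lower mean in KO (median -0.41, but -0.83 without WT animal 2 and -0.22 without WT animal 5). The list mean lay between 10.02 and 11.04 in the KO lenses and between 10.78 and 11.20 in the WT lenses. Of the 20 retina and pigment genes, 10 had a higher mean in KO (median -0.02), but 16 without WT animal 5 (median 0.19) and 8 without WT animal 6 (median -0.23). The list had means of 11.05 to 11.51 (KO) and 10.64 to 11.48 (WT), and the 23 lens genes had a median of -0.05 (0.01 without KO animal 4) and means of 12.77 to 13.00 (KO) and 12.94 to 13.02 (WT). The mean of the 10 markers lay between 7.15 and 7.66 in the KO lenses and between 6.92 and 7.17 in the WT lenses. No gene of these 4 lists passed in limma, and those with an unadjusted p under 0.05 were 2 of red cells and endothelium, 3 of cornea and stroma, 4 of retina and pigment cells and 0 of lens. The share of all genes at that level was 4.07%. The part of these tissues in the marker values was not tested.

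The genes whose values followed Csf1r (1419872_at) most closely over the 7 lenses were found among 11706 genes whose mean level exceeded that of the median probe set. The measure was the mean absolute difference between lens values, each gene first centred on its mean over the 6 animals. The nearest were C1qb (0.14 on the log2 scale) and C1qc (0.17), which encode the other chains of complement C1q, followed by Syne4, a nuclear envelope protein (0.21), Tnfrsf1a, a receptor of tumour necrosis factor (0.22), and Ang, a ribonuclease (0.24). Among the markers, Laptm5 (1426025_s_at) ranked 76 and Ctss 130, while Fcer1g ranked 6513 and Lyz2 9034. This is a description over 7 lenses of 6 animals, whose values were normalized together, and the remaining markers were below the level at which genes were compared.

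C1qb at its nearest probe set, 1434366_x_at, where only 6L lay under the bacterial controls, had signals of 117 (1L), 147 (1R), 244 (4L) and 138 (7L) in KO and 46.8 (2L), 111 (5L) and 36.2 (6L) in WT. As for Csf1r, 4L was the highest lens, and 2L and 6L were the lowest. The log2 difference was 1.18 (SE 0.46; limma, unadjusted p = 0.0276, adjusted p = 0.99988), and the other C1qb probe sets differed by 0.89 and 1.76. For C1qc the log2 difference was 0.88 (SE 0.43). C1qb at 1434366_x_at and C1qc were chosen for their likeness to Csf1r over these same lenses. Their lens pattern and higher KO mean therefore follow from that choice and are no separate support for a difference.

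**Figure D4:**
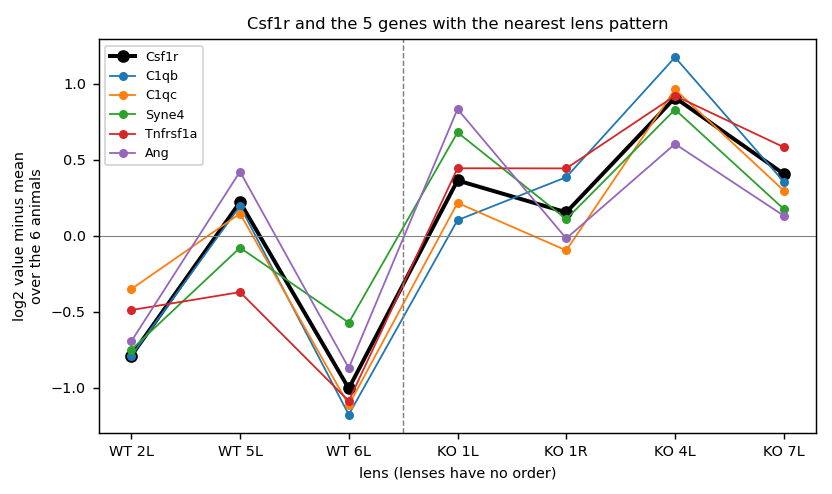
Log2 value minus the mean over the 6 animals for Csf1r (black) and the 5 genes nearest to it, in each of the 3 WT and 4 KO lenses. Lines join the values of 1 gene and show no order of lenses. C1qb and C1qc, at mean distances of 0.14 and 0.17, share the low values of 2L and 6L and the high value of 4L, a likeness for which they were chosen.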

How the data were processed

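RNA of 7 lenses was measured on 7 Affymetrix mouse arrays. The authors deposited linear intensity values, 1 summary signal per probe set, and, tested on the table, each array has a mean of 500.003 or 500.004 after trimming 2% at each end. The sources used here name neither the summary method nor a genome build. Of the deposited values, log2(signal + 16) was taken, where the added 16 makes differences of weak probe sets too small. These log2 values were then quantile normalized. Control probe sets (64) were left out, 45037 stayed with no filter, and 1L and 1R were averaged. The animals of both groups were compared by limma 3.58.1 in R 4.3.3 (lmFit, eBayes with an intensity trend, tests on both sides). P-values of all probe sets were adjusted together by Benjamini-Hochberg, with 0.05 as threshold. The code was tested on simulated data. Gene names came from the platform annotation (34945 probe sets with 1 symbol, 932 with several, 9160 with none).

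The marker genes and gene lists were chosen with earlier results of these data known. A gene was described by its probe set with the highest mean. Named were all markers, up to 3 genes of each list with the smallest p, the defining genes of a list, and the 5 genes nearest to Csf1r over the lenses. Lyz1, Csf1, Il34, Cst3 and Cd74 were named for what they are, outside that rule. Cd86, Ly86, Mrc1, H2-Ab1, H2-Eb1, Nkg7, Prf1 and Zap70 were also named outside it, to show the range of their lists. Alternatives were other normalizations, pseudocounts of 1 and 64, a filter, no trend, array weights, the lenses singly, the mean over probe sets of a gene, and leaving out each animal.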

Additional observations from a re-analysis of the deposited data

Results flagged for a closer look

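Of the 18 marker probe sets, each tested once over the 4 KO lenses, 2 held a lens far from the other 3, and chance flags about 1 in 20 groups of 4 independent samples. Here 1L and 1R come from 1 animal, so that rate does not hold exactly. For Cx3cr1 at 1450020_at the KO lens 4L was at 7.99 on the log2 scale, while the other 3 KO lenses were at 5.95 to 6.26. For Laptm5 at 1447742_at the KO lens 4L was at 5.82 and the others at 6.90 to 7.12. Both concern lens 4L, which was high for Cx3cr1 and low for this Laptm5 probe set.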

How the results depend on the processing

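The number of marker probe sets past the threshold was 0 under every alternative in limma, and the smallest adjusted p of a marker was 0.604 (Aif1, array weights). The number over all probe sets was 2 or 3. The median log2 difference over the marker genes was 0.38. It was 0.24 with a pseudocount of 64, 0.53 with the filter on low values, which left 5 genes, and 0.49 over the 6 genes above the bacterial controls in all lenses, an alternative chosen after seeing the data. Leaving out 1 animal at a time gave 0.28 to 0.47. Of the differences of single genes, 6 turned their sign and 159 did not. For Cd68 the difference was -0.0094 with the 7 lenses as independent samples, and from -0.042 (without KO animal 4) to 0.24 (without WT animal 2) when animals were left out, below 0 also without WT animal 5 or 6. For Cx3cr1 it ran from -0.41 (without KO animal 4) to 0.57 (without KO animal 1), and was -0.0060 without WT animal 5. The cause was not tested. Median centring left a higher KO mean at 41.5% of all probe sets and the signals as deposited at 53.5%, against 48.4% here. No paired analysis was possible because KO and WT animals share no replicate number. Signal near the bacterial controls limits Cd68, Ptprc, Aif1, Tyrobp and Cx3cr1.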
